A study of Homo sapiens with 6 samples.

Results

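The 10 genes described here are hosts of small nucleolar RNAs (snoRNAs): SNHG1, SNHG5, SNHG6, SNHG7, SNHG8, SNHG12, SNHG15, SNHG16, GAS5 and ZFAS1. They were taken by name, through the Ensembl identifiers of GENCODE release 29, and they are 10 of the 18318 genes of the count table. All 10 were among the 12797 genes with enough counts to be tested. The cells were A375, a human malignant melanoma line, in 2 groups of 3 libraries that the submitters call biological replicates. The SLNCR group was transfected with a pcDNA3.1 plasmid that carries full-length SLNCR, a long non-coding RNA, with the genotype label wild type SLNCR. The control group was transfected with the empty vector. Per the labels, the plasmid holds a CAG promoter and a puromycin resistance gene, Lipofectamine 2000 was used in every transfection, and cells of both groups grew for 48 h in 2 µg/mL puromycin before RNA was taken. The cells are thus a selected, mixed population of transfected cells of a single line. SLNCR was supplied from a plasmid, and counts per gene do not separate reads of the plasmid from those of the locus.

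A snoRNA host gene is transcribed by RNA polymerase II, spliced, and then works mainly through its introns, from which exonucleases trim the snoRNAs. Box C/D snoRNAs guide 2′-O-methylation and box H/ACA snoRNAs guide pseudouridylation, chiefly of ribosomal RNA. Many hosts start with a run of pyrimidines, the 5′ terminal oligopyrimidine (TOP) element that they share with ribosomal protein genes. Their spliced exons hold only short reading frames, and several of them are degraded by nonsense-mediated decay, so the level of the spliced host can move apart from that of its snoRNA. The spliced RNAs of GAS5, SNHG1 and other hosts are also studied in their own right in tumours.

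The SLNCR gene, LINC00673, had 195, 194 and 193 reads with the empty vector and 1786, 2569 and 2040 with SLNCR, a 10.4-fold difference. Libraries held between 9018886 and 10497547 reads in the genes used. The labels give the cell type as epithelial. MITF, the melanocyte lineage regulator, had 767 to 969 reads per library and SOX10 105 to 152, whereas the epithelial genes EPCAM and CDH1 had at most 4 and 2. The pigment genes PMEL, DCT and MLANA were also low, with at most 13, 6 and 16 reads, and EDNRB had at most 26. TYR and S100B were not matched to a row. Summed over whole marker lists, the libraries ran from 104 to 134 CPM for the melanocyte lineage, with 76.5 to 104 from MITF alone. The sums were 0.89 to 1.87 for epithelium, 3.67 to 5.36 for fibroblasts and 0.475 to 1.11 for immune cells. CPM are reads brought to a common library size with edgeR's TMM factors. In bulk RNA, fewer cells with a transcript and less of it per cell cannot be told apart.

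The starts of 6 hosts are shown because 2 features that differ among these hosts can be read there, a TATA box and the pyrimidine run. Each is RefSeq's window on GRCh38.p14, 40 bases before to 20 bases from the annotated start, on the gene's strand. Capitals mark TATAA between 40 and 20 bases before the start, and the run of C and T at or next to the start. In every window shown this run begins before the annotated start.
SNHG12, chr1:28581854-28581913 (minus): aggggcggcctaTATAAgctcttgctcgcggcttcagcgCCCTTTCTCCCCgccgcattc
SNHG8, chr4:118278722-118278781 (plus): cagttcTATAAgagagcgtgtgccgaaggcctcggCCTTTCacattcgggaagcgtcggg
SNHG7, chr9:136728165-136728224 (minus): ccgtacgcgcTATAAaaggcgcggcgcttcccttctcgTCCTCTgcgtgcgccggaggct
ZFAS1, chr20:49278602-49278661 (plus): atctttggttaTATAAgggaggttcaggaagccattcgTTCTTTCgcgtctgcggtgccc
SNHG1, chr11:62855866-62855925 (minus): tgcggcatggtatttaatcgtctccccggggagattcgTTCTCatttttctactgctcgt
SNHG16, chr17:76557724-76557783 (plus): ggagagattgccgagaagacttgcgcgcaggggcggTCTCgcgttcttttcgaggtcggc

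Of the 10 hosts, 8 matched a RefSeq window by symbol. TATAA was read on the gene's strand in 5 of the 8, SNHG5, SNHG7, SNHG8, SNHG12 and ZFAS1, against 3.77% of all 35116 windows. On the other strand 1 of the 8 held it, ZFAS1, against 1.59% of all windows. A run of at least 5 C or T bases at the start was present in 6 of the 8, and in 22.4% of all windows. The run was 12 bases long in SNHG12, 7 in ZFAS1, 6 in SNHG5, SNHG7 and SNHG8, 5 in SNHG1 and 4 in SNHG16. It was 3 in GAS5 at the RefSeq start. These lengths include bases before the annotated start. The run begins at position -1 in SNHG5 and SNHG12, -2 in SNHG1, SNHG7 and ZFAS1, and -5 in SNHG8. In SNHG16 and GAS5 it begins at -4 and -3 and ends before the start. The lengths are thus not those of a TOP element within the transcript. The start shared by the most GAS5 transcripts in GENCODE, 6 of 29, gives a 6-base run at the head of its first 30 bases, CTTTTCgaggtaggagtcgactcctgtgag. Both letter searches were chosen after the fold changes had been seen, and a match is a description of the letters alone.

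The 10 hosts spanned a wide range of levels in the empty vector cells. Levels are given as CPM per kilobase of exon in GENCODE. SNHG16 was the highest at 101 ± 1.33 CPM per kilobase (SD, n = 3 here and below), followed by SNHG1 at 44.9 ± 3.55, ZFAS1 at 41.3 ± 0.747, SNHG8 at 39.5 ± 2.38 and SNHG6 at 34.6 ± 1.41. SNHG5 stood at 23.9 ± 1.58, GAS5 at 21.4 ± 0.403 and SNHG7 at 11.7 ± 0.324. SNHG15 at 6.75 ± 0.604 and SNHG12 at 5.84 ± 0.391 were the lowest. SNHG1 and ZFAS1, ZFAS1 and SNHG8, and SNHG15 and SNHG12 overlapped in their libraries, and the other neighbours in this order were separate. The order depends on the gene model. Per kilobase of the longest transcript, SNHG16 stayed first at 150 CPM but SNHG1 came after ZFAS1, SNHG6 and SNHG5.

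SNHG12 and SNHG8 fell in the SLNCR cells, 2 of the 10 hosts at an adjusted p below 0.05 (edgeR's quasi-likelihood test with Benjamini-Hochberg adjustment over all tested genes). Of all tested genes, 16.5% passed in either direction, 7.67% as lower and 8.84% as higher. None of the 10 rose, and none was higher at an unadjusted p below 0.05 or by DESeq2. The median log2 fold change of the 10 was -0.14, against -0.01 for all tested genes. The values ran from -0.51 in SNHG12 to 0.09 in SNHG1, and 8 of the 10 were negative, against 51.2% of tested genes. At an unadjusted p below 0.05 stood 4 of the 10, against 34.8% of all genes. The number of hosts called lower was 0 without empty vector replicate 1, without empty vector replicate 2 or without SLNCR replicate 1, 4 without SLNCR replicate 2 and 1 without SLNCR replicate 3. The number of all genes called moved alike, from 2112 to 1, 2, 1 and 3366 without the first 4 of these libraries, and no call of a host or of a gene in the lists below was kept in all of these fits.

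**Figure D1:**
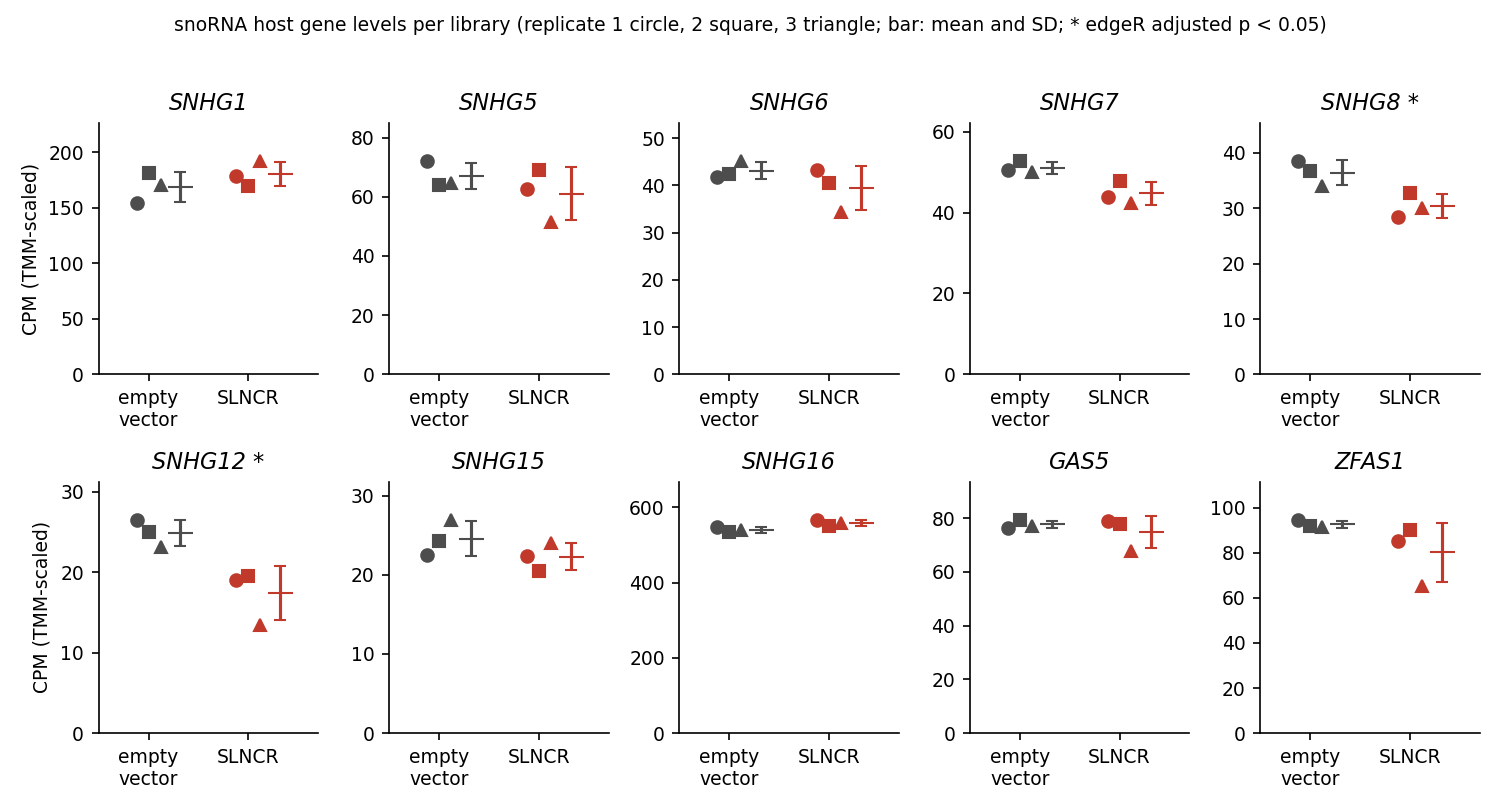
Level of each snoRNA host gene in the 3 empty vector libraries (grey) and the 3 SLNCR libraries (red), in TMM-scaled CPM from 0, with a bar for the mean and SD of each group and a star for an adjusted p below 0.05. SNHG12 and SNHG8 lie lower in every SLNCR library than in any empty vector library, and SNHG5, SNHG6, SNHG7, SNHG12, GAS5 and ZFAS1 are lowest in SLNCR replicate 3.

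SNHG12 is the host of SNORA16A, SNORA44, SNORA61 and SNORD99 and lies on the minus strand at chr1:28578538-28583132 (GRCh38, GENCODE antisense class). It had 266, 227 and 212 reads with the empty vector and 201, 204 and 121 with SLNCR, or 26.5, 25.0 and 23.2 CPM against 19.1, 19.6 and 13.5. The groups did not overlap, and SLNCR replicate 3 was well below the other SLNCR libraries. The mean went from 24.9 ± 1.67 to 17.4 ± 3.41 CPM, a log2 fold change of -0.51 (adjusted p by edgeR = 0.0163, SE 0.123), or 29.8% lower. Without SLNCR replicate 3 the log2 fold change was -0.36 (edgeR adjusted p = 0.0197). The edgeR adjusted p was 0.114 without empty vector replicate 1, 0.084 without empty vector replicate 2 and 0.0543 without SLNCR replicate 1. With a correction of each library for gene GC content it was also -0.36, with an adjusted p of 0.12 by edgeR.

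SNHG8 is a short host of SNORA24, a box H/ACA snoRNA, on the plus strand at chr4:118278709-118279823 (lincRNA class). Its reads were 386, 334 and 312 with the empty vector and 299, 341 and 270 with SLNCR, or 38.50, 36.79 and 34.15 CPM against 28.42, 32.77 and 30.05. The groups did not overlap, and the lowest library was SLNCR replicate 1. The mean went from 36.5 ± 2.19 to 30.4 ± 2.2 CPM, a log2 fold change of -0.26 (adjusted p by edgeR = 0.046, SE 0.0861), or 16.7% lower. This call lay next to the threshold. The edgeR adjusted p was 0.199 and 0.136 without empty vector replicates 1 and 2, and 0.172 and 0.0598 without SLNCR replicates 1 and 3. It was 0.0806 by DESeq2 and 0.16 with the GC correction in edgeR, where the log2 fold change was -0.24.

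SNHG7, host of the box H/ACA snoRNAs SNORA17A and SNORA17B, lies on the minus strand at chr9:136721366-136728184 and has the highest GC content of the 10, 65.9%. Its CPM were 50.47, 52.65 and 50.02 with the empty vector and 43.92, 47.86 and 42.51 with SLNCR. The groups did not overlap, but the log2 fold change of -0.19 (SE 0.0741) missed the threshold with an edgeR adjusted p of 0.0842. Without SLNCR replicate 2 it passed, with -0.24 (edgeR adjusted p = 0.0365). The GC correction turned its sign, to 0.10 (edgeR adjusted p = 0.508).

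ZFAS1 is transcribed from the promoter region of ZNFX1 on the opposite strand and hosts SNORD12, SNORD12B and SNORD12C, at chr20:49278178-49295738. It stood at 94.5, 92.0 and 91.3 CPM with the empty vector and at 85.1, 90.1 and 65.3 with SLNCR. The 3 SLNCR values were all below the controls, but replicate 3 lay far below the other 2. The log2 fold change was -0.20 (adjusted p by edgeR = 0.127, SE 0.0915), -0.08 without that library, and -0.29 without SLNCR replicate 2 (edgeR adjusted p = 0.0158). Its neighbour ZNFX1, which overlaps it by 249 bases, had -0.10 (edgeR adjusted p = 0.195).

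SNHG5, host of SNORD50B, lies at chr6:85660950-85678748 on the minus strand. Its CPM were 72.0, 64.0 and 64.8 with the empty vector and 62.5, 69.2 and 51.5 with SLNCR. The groups overlapped, with the lowest value in SLNCR replicate 3, and the log2 fold change of -0.13 (adjusted p by edgeR = 0.323, SE 0.091) became -0.02 without that library.

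SNHG6, host of SNORD87, lies at chr8:66921684-66926398 on the minus strand. Its CPM were 41.8, 42.4 and 45.1 with the empty vector and 43.3, 40.6 and 34.3 with SLNCR. These overlapped too, and SLNCR replicate 3 was again the lowest. It had a log2 fold change of -0.13 (adjusted p by edgeR = 0.317, SE 0.0875), -0.04 without that library, and -0.25 with the GC correction (edgeR adjusted p = 0.177).

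GAS5, named for its accumulation in growth-arrested cells and known as a decoy of the glucocorticoid receptor, lies at chr1:173863900-173868882 on the minus strand. It had 76.5, 79.3 and 77.2 CPM with the empty vector and 78.8, 77.7 and 67.9 with SLNCR. SLNCR replicates 1 and 2 lay inside the control range and replicate 3 below it. The log2 fold change was -0.05 (adjusted p by edgeR = 0.62, SE 0.0695), and 0.01 without SLNCR replicate 3.

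SNHG15, host of SNORA9 and known as a short-lived transcript, lies at chr7:44983023-44986961 on the minus strand. Its CPM were 22.5, 24.3 and 26.9 with the empty vector and 22.4, 20.5 and 24.0 with SLNCR. The groups overlapped, the lowest library was SLNCR replicate 2, and the log2 fold change was -0.14 (adjusted p by edgeR = 0.327, SE 0.1).

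SNHG1 and SNHG16, the 2 hosts with the most reads, had positive values. SNHG1, host of SNORD22 and SNORD25 to SNORD28 among other box C/D snoRNAs, lies at chr11:62851988-62855914 on the minus strand. It stood at 154, 181 and 171 CPM with the empty vector and 179, 170 and 192 with SLNCR. These ranges overlapped, and here SLNCR replicate 3 was the highest library. The log2 fold change was 0.09 (adjusted p by edgeR = 0.317, SE 0.0652).

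SNHG16, host of SNORD1A, SNORD1B and SNORD1C, lies at chr17:76557766-76565348 on the plus strand. Its CPM were 547, 533 and 539 with the empty vector and 566, 550 and 559 with SLNCR. The groups did not overlap, yet the difference was small, with a log2 fold change of 0.05 (adjusted p by edgeR = 0.459, SE 0.0442). For both genes the GC correction gave -0.01.

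In 5 of the 10 hosts the groups did not overlap, 4 of them lower in the SLNCR cells. Over all tested genes 38.9% did not overlap, and 19.1% did not overlap and were lower. The summed level of the 10 hosts, to which SNHG16 and SNHG1 add the most, was 1124.4, 1130.1 and 1123.4 CPM with the empty vector and 1128.6, 1117.7 and 1079.5 with SLNCR. The mean log2 deviation of the 10 from the empty vector mean, which weights each gene equally, was -0.11, -0.09 and -0.26 in SLNCR replicates 1, 2 and 3.

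**Figure D2:**
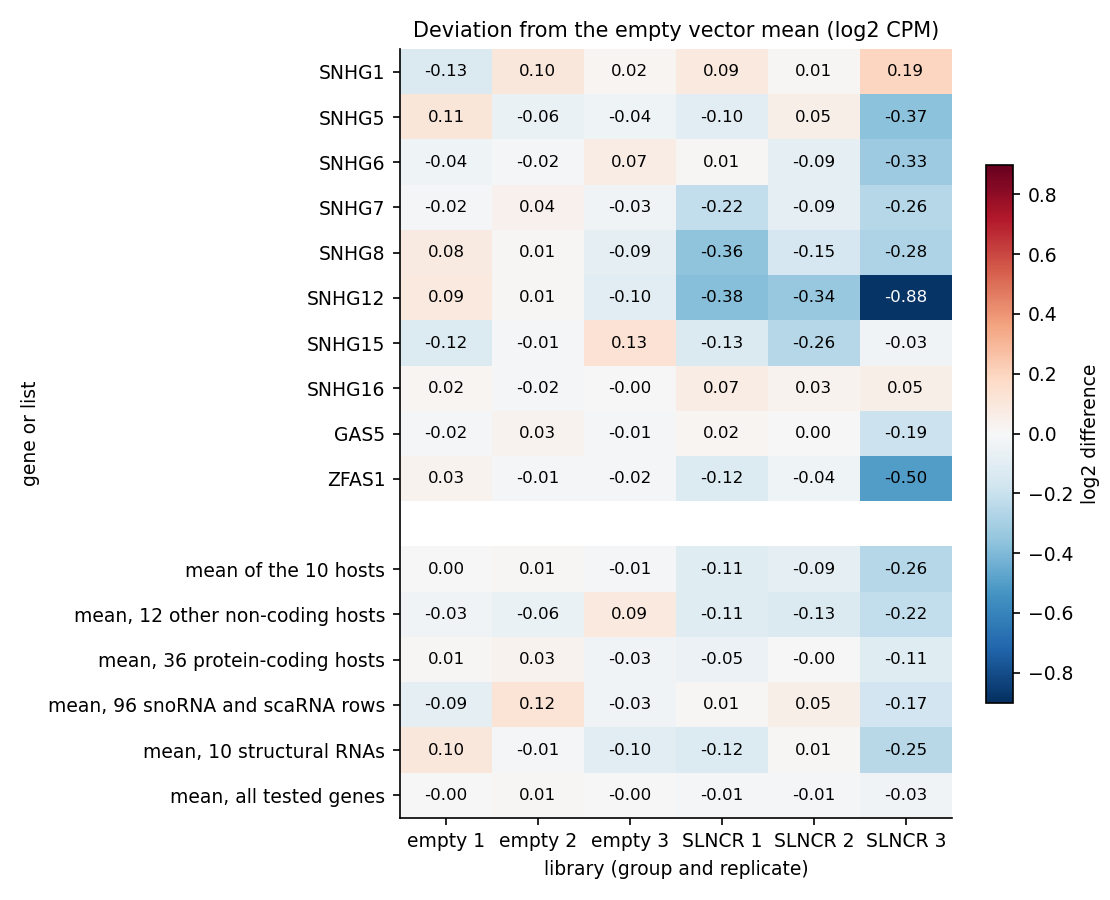
Difference of each library from the empty vector mean, in log2 CPM, for the 10 hosts and as the mean over other groups of genes (rows), in the 3 empty vector and 3 SLNCR libraries (columns), where blue is lower and red is higher. SLNCR replicate 3 is the lowest library for 6 of the 10 hosts, with -0.88 in SNHG12 and -0.50 in ZFAS1, and the mean over the other non-coding hosts and that over 10 structural RNAs are lowest there too.

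SLNCR replicate 3 was the lowest library for 6 of the 10 hosts, against 30.7% of all tested genes. In the same library the mean log2 deviation was -0.25 over 10 abundant structural RNAs, a list chosen to reflect RNA quality, and -0.17 over 96 snoRNA and small Cajal body RNA rows. The structural RNAs went both ways there, 7 below and 3 above the empty vector mean, and 5 of the 10 were lowest in it. RN7SL2, an RNA of the signal recognition particle, deviated the most with -1.24, while RMRP, RN7SK and RNU12 had 0.16, 0.06 and 0.63. RNU12 rests on only 24 to 49 reads per library. The summed level of the structural RNAs ran from 31778.8 to 36829.5 CPM in the empty vector libraries and from 31115.7 to 33401.0 in the SLNCR libraries. None of these 10 RNAs passed the test by edgeR, DESeq2 or limma-voom or had an unadjusted p below 0.05, and their median log2 fold change was -0.08. The part of RNA quality or of this library's preparation in the hosts' values was not tested. Without this library the median of the 10 hosts was -0.06, 7 of the 10 were negative, and SNHG12 alone was called lower, where 5.45% of tested genes were called lower.

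Gene GC content moved with the fold changes over the whole table: genes below 45% GC had a median log2 fold change of 0.16 and genes above 55% one of -0.21. The hosts span 42.0% (SNHG6) to 65.9% (SNHG7). After the correction of each library for GC content none of the 10 hosts was called, against 0.0156% of tested genes, which is 2 genes. At an unadjusted p below 0.05 stood 4 hosts after the correction, SNHG6, SNHG8, SNHG12 and GAS5, against 15.1% of tested genes. Before it they were SNHG7, SNHG8, SNHG12 and ZFAS1. The median of the hosts was -0.13 after the correction and that of all genes 0.00, and 9 of the 10 hosts were negative, against 49.5% of tested genes. The correction moved hosts in both directions. SNHG7 and ZFAS1, with 65.9% and 55.7% GC, went to 0.10 and -0.07, whereas GAS5 and SNHG6, with 42.2% and 42.0%, went to -0.17 and -0.25. With the correction and without SLNCR replicate 3 the median was -0.06.

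**Figure D3:**
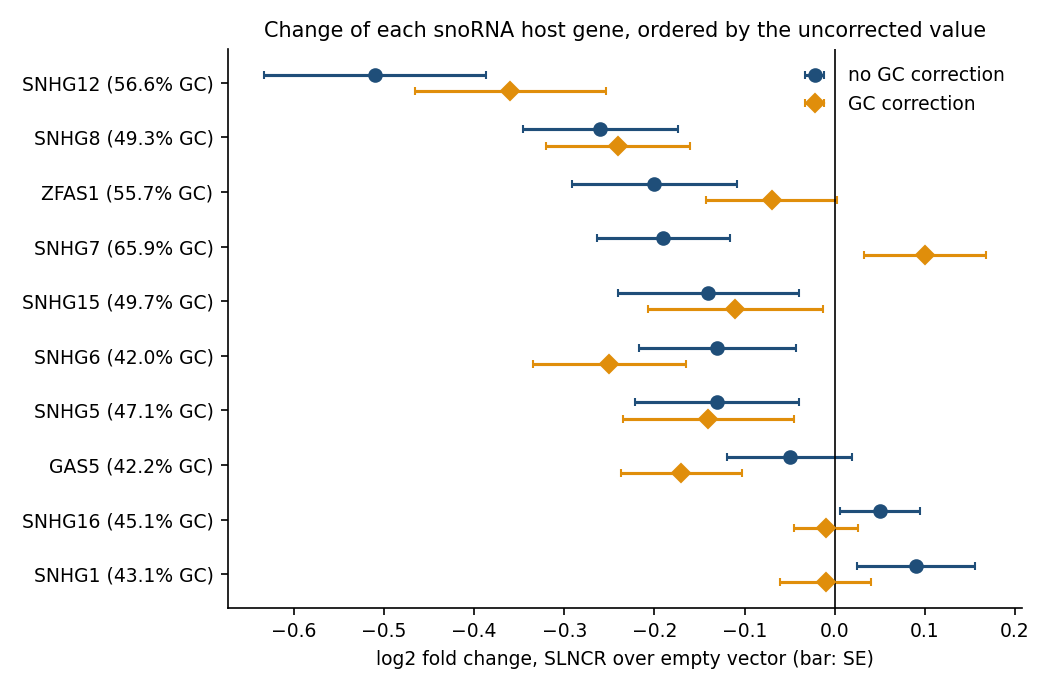
Log2 fold change of each host (SLNCR over empty vector) with its standard error, without a correction for GC content (blue circles) and with it (orange diamonds), ordered by the uncorrected value and with the GC content of the longest transcript beside each name. SNHG12 and SNHG8 stay the lowest or among the lowest in both, SNHG7 changes sign from -0.19 to 0.10, and SNHG16 and SNHG1 go to -0.01.

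**Figure D4:**
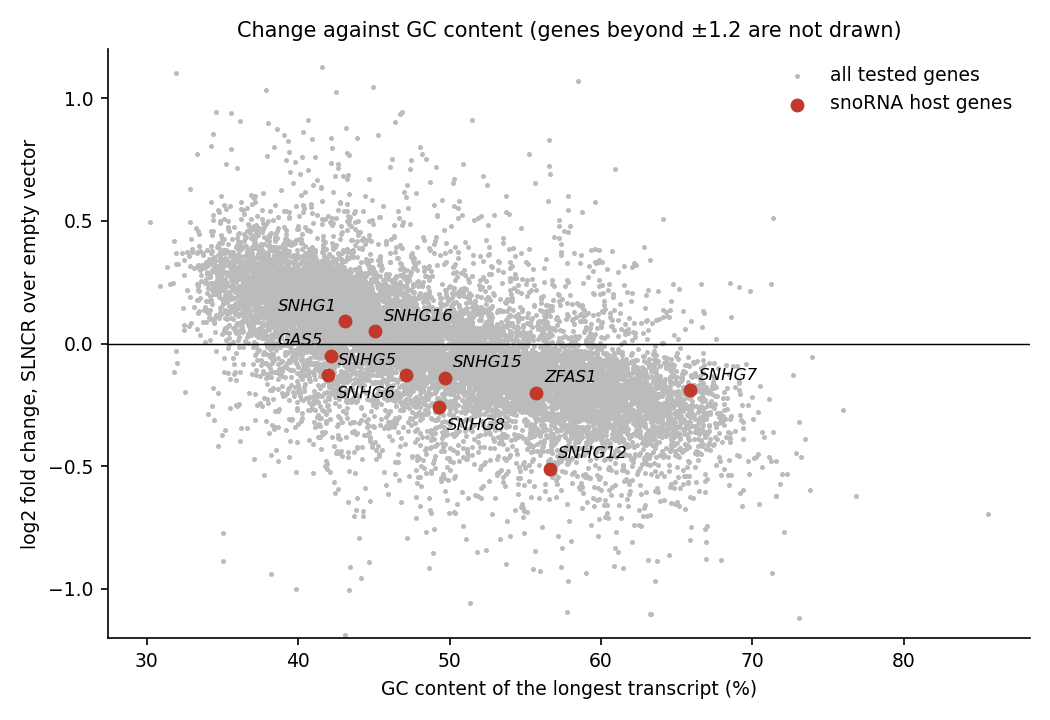
Log2 fold change (SLNCR over empty vector, vertical) against the GC content of the longest transcript in percent (horizontal), for all tested genes (grey) and the 10 hosts (red). The cloud of all genes slopes downwards, and SNHG12 lies at -0.51 near its lower edge while SNHG7, at 65.9% GC, lies inside it.

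The hosts varied together only in part. Over the 6 libraries, 27 of the 45 pairs of hosts had a positive Pearson correlation of log2 CPM, with a median r of 0.25. SNHG5 and ZFAS1 were the most alike (r = 0.94), followed by SNHG12 and ZFAS1 (r = 0.937), and SNHG7 and SNHG16 the least (r = -0.91). These values share the 6 libraries, among them the low SLNCR replicate 3. Outside the 10, the genes most like the hosts' mean log2 CPM over the 6 libraries were MAP3K3, a kinase (r = 0.999), PEPD, a dipeptidase (r = 0.998), and TNPO2, a nuclear import receptor (r = 0.998). With only 6 libraries, 498 of 12787 genes had r above 0.95.

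The snoRNAs inside the hosts could be followed only in part. A search of GENCODE gave 23 snoRNA genes within the hosts on the same strand, none of them in GAS5. In SNHG7, SNORA17A and an unnamed snoRNA gene cover nearly the same bases, so the 23 are not all distinct. Of the 23, 19 were matched to rows of the table, in 8 hosts. Of the 19, 10 had enough reads to be tested. The snoRNAs of GAS5 and SNHG7 are not analysed here. Counts at these rows cannot tell a trimmed snoRNA from an unspliced host RNA that still holds the intron. The 4 with at least 30 reads on average are printed because they have the most reads among these rows. Box C (TGATGA) and box D (CTGA), or the ACA box, are in capitals. Each comes from GENCODE's transcript sequence and is written as DNA.
SNORD25 of SNHG1, chr11:62855564-62855632 (minus): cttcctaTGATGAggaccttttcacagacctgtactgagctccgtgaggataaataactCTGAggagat
SNORD12B of ZFAS1, chr20:49280319-49280409 (plus): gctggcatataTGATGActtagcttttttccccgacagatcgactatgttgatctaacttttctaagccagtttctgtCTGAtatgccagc
SNORD12C of ZFAS1, chr20:49278940-49279028 (plus): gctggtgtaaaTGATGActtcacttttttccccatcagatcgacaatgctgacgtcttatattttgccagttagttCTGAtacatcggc
SNORA16A of SNHG12, chr1:28580920-28581056 (minus): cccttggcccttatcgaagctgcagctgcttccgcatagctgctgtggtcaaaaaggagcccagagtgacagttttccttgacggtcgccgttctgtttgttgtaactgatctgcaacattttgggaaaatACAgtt

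None of the 10 tested snoRNAs passed the test by edgeR, DESeq2 or limma-voom, and none had an unadjusted p below 0.05 in edgeR. Their median log2 fold change was -0.05, with 7 negative and 3 positive. SNORA16A, carried by SNHG12, had 136, 107 and 104 reads with the empty vector and 157, 104 and 112 with SLNCR. These overlapped, with a log2 fold change of 0.02 (adjusted p by edgeR = 0.91, SE 0.144) where its host had -0.51. The difference between the 2 fold changes was not tested. SNORD99, also of SNHG12, had 11, 14 and 9 reads against 14, 10 and 6, with a log2 fold change of -0.26 (SE 0.376).

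In ZFAS1, SNORD12B had 63, 80 and 55 reads with the empty vector and 72, 90 and 42 with SLNCR. SNORD12C had 42, 32 and 45 against 46, 51 and 26. In both, SLNCR replicate 3 was the lowest library, as it was for ZFAS1, and the log2 fold changes were -0.05 (SE 0.208) and -0.04 (SE 0.222). SNORD12 had -0.05 (SE 0.369). In SNHG1, SNORD25 had 71, 58 and 44 reads against 56, 69 and 31, a log2 fold change of -0.24 (SE 0.217), with SNORD28 at -0.25 (SE 0.294) and SNORD26 at 0.21 (SE 0.329). SNORD50B of SNHG5 had 14, 24 and 33 reads against 41, 23 and 39, a log2 fold change of 0.45 (SE 0.315), and SNORA9 of SNHG15 had -0.34 (SE 0.358). The standard errors of these 10 rows exceed those of all 10 hosts, so changes of the size seen in SNHG8 were not detectable at this depth. Summed over the 19 rows the libraries held 421, 452 and 394 reads against 501, 468 and 327.

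Among 18 other non-coding snoRNA hosts, 12 were tested, SNHG17 fell and none rose, where 7.67% of all tested genes fell and 8.84% rose. The median log2 fold change was -0.12 and 10 were negative, against -0.01 and 51.2% over all tested genes. SNHG17, host of SNORA71 family snoRNAs, went from 80.9 ± 2.61 to 67.7 ± 6.35 CPM, a log2 fold change of -0.25 (adjusted p by edgeR = 0.0287, SE 0.0731). Its adjusted p was 0.0675 without SLNCR replicate 3 and 0.155 with the GC correction, both by edgeR. DANCR, an RNA studied for holding back differentiation, was lower in every SLNCR library with -0.16, but its edgeR adjusted p was 0.0786. SNHG21 and SNHG10 had -0.44 and -0.34 at few reads, with edgeR adjusted p-values of 0.0886 and 0.163.

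Among 36 tested protein-coding snoRNA hosts, 4 fell, 2 rose and 30 did not pass, with a median of -0.06. This is near the share over all tested genes, 16.5%. Of the 4 that fell, RPS3 and RPL3, proteins of the small and the large ribosomal subunit, had -0.25 and -0.20, EEF2, the elongation factor that moves the ribosome along, had -0.19, and RPL13A had -0.21 (edgeR adjusted p = 0.0139, 0.0231, 0.0201 and 0.024). NOP58, itself a protein of the box C/D particle, rose with 0.24 (edgeR adjusted p = 0.0174), and PTCD3, a mitochondrial ribosomal protein, with 0.26. After the GC correction EEF2 stood at 0.01, RPL3 at -0.06 and NOP58 at 0.10, and RPS3 at -0.31 (edgeR adjusted p = 0.0643). Without SLNCR replicate 3, 9 of the 36 were called in place of 6, where 11.6% of tested genes were called. With the GC correction none was called, although 14 of the 36 had an unadjusted edgeR p below 0.05, against 15.1% of all tested genes.

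The 19 genes of the snoRNP, the protein shell that snoRNAs need, and of its assembly gave 2 higher, 2 lower and 15 not called, with a median of -0.01. Of all tested genes, 8.84% were called higher and 7.67% lower. NOP58 and RPAP3, a subunit of the R2TP assembly complex, rose with 0.24 and 0.31, while RUVBL2 and PIH1D1, which belong to the same complex, fell with -0.25 and -0.28 (edgeR adjusted p = 0.0174, 0.0137, 0.0174 and 0.0486). RPAP3 has a GC content of 35.7% and RUVBL2 of 60.1%, and after the GC correction they stood at 0.07 and -0.05. PIH1D1 had an edgeR adjusted p of 0.158 without SLNCR replicate 3.

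Of 19 nonsense-mediated decay factors, UPF1, the central helicase, fell with -0.25 and NBAS rose with 0.20 (edgeR adjusted p = 0.0375 and 0.0477), and 17 did not pass. Over all tested genes 16.5% passed. With the GC correction UPF1 stood at -0.04. UPF3A had -0.24 and EIF4A3, a core protein of the exon junction complex, -0.21, with edgeR adjusted p-values of 0.067 and 0.0514. Of 8 protein-coding transcripts reported as substrates of this decay, none passed by edgeR, DESeq2 or limma-voom. An unadjusted edgeR p below 0.05 was found in 3 of the 8, near the share over all tested genes, 34.8%. The median was -0.17 and 8 of 8 were negative, against -0.01 and 51.2% over all tested genes. UPP1, ATF3 and TBL2 had -0.25, -0.24 and -0.24, and GADD45A, a stress response gene, -0.16. With the GC correction the median of the 8 was -0.13 and 5 were negative, against 49.5% of tested genes.

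Of 8 proteins that bind TOP elements or belong to the same families, LARP4 and TIA1 rose with 0.21 and 0.30 (edgeR adjusted p = 0.0171 and 0.0159), none fell, and the median was 0.08. Of all tested genes, 8.84% rose and 7.67% fell. LARP1B had 0.19 and LARP4B 0.08, with edgeR adjusted p-values of 0.142 and 0.293. LARP4 and TIA1 have 35.8% and 36.6% GC, and after the correction they stood at -0.02 and 0.08.

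**Figure D5:**
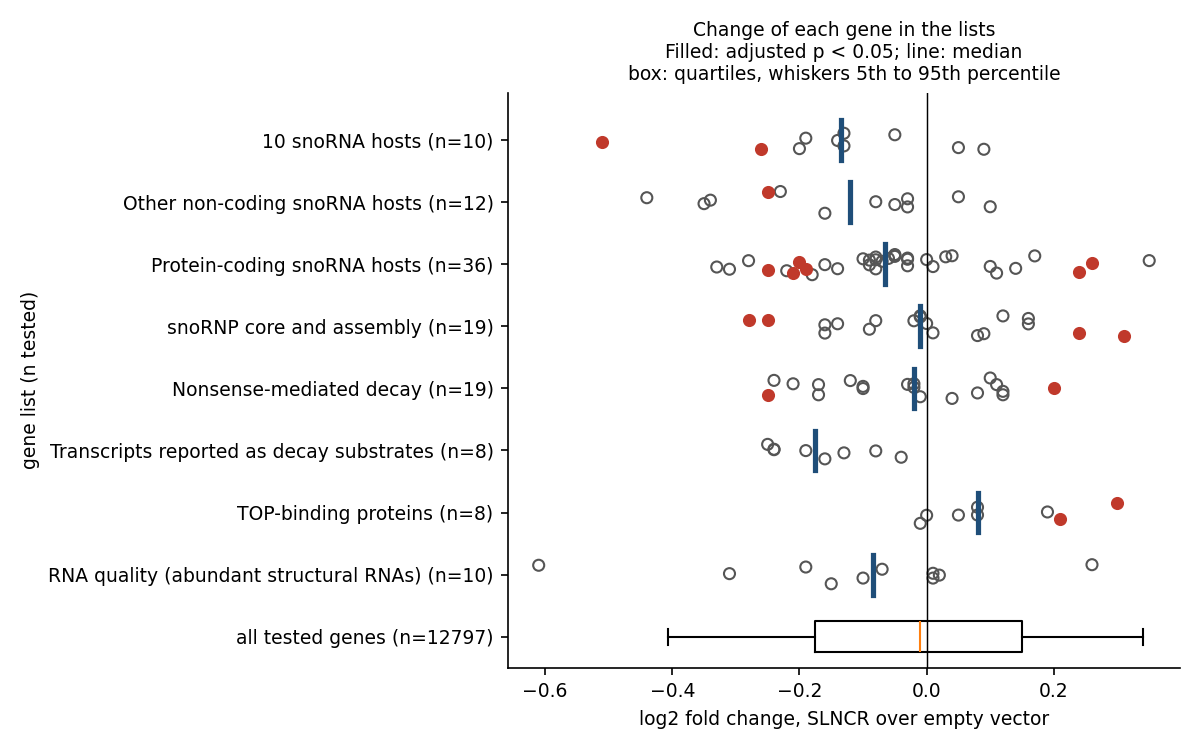
Log2 fold change (SLNCR over empty vector) of every tested gene in the 10 hosts and 7 companion lists, 1 circle per gene, filled where the edgeR adjusted p is below 0.05, with a bar for the median and a box for all tested genes. The hosts' median is -0.14, the decay substrates have -0.17 with no filled circle, and the TOP-binding proteins have 0.08.

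Promoter letters and fold changes can be set side by side. The 5 hosts with TATAA had log2 fold changes from -0.51 to -0.13, and SNHG1, SNHG16 and GAS5, without it, had 0.09, 0.05 and -0.05. For GAS5 only the window at the RefSeq start was searched for TATAA, not the start shared by the most GENCODE transcripts. With the GC correction the values overlapped, from -0.36 to 0.10 in the 5 hosts with TATAA and -0.01, -0.01 and -0.17 in the others. Over the 10134 tested genes with a window, the 314 with TATAA had a median of -0.08 and the others -0.00. SNHG12 has both the longest C/T run of the 8 and the lowest fold change. However, SNHG5, SNHG7 and SNHG8 each have a run of 6 bases and span -0.26 to -0.13. Their runs begin at different positions, -1, -2 and -5 from the annotated start, so they are not alike as transcript ends.

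Several hosts overlap other genes in GENCODE, and the strand setting of the counting is not given in the sources used here, so shared reads cannot be assigned. SNHG7 shares 2685 bases of its span with DIPK1B and SNHG16 1639 with an unnamed gene, neither of which is analysed here. GAS5 shares 801 with ZBTB37 and 42 with GAS5-AS1, SNHG6 365 with MCMDC2, and SNHG12 only 8 with TRNAU1AP. ZBTB37 had a log2 fold change of -0.10, GAS5-AS1 0.01, MCMDC2 0.19 and TRNAU1AP -0.04, with edgeR adjusted p-values of 0.628, 0.929, 0.381 and 0.843. SNHG1, SNHG5, SNHG8 and SNHG15 had no overlapping partner other than snoRNA genes in this search.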

How the data were processed

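RNA of 6 A375 cultures was sequenced after ribosomal RNA depletion, per the labels. The deposited values are raw counts of reads per gene, as whole numbers, and the authors' processing was taken as it stood. The tools named per the submitters' processing notes are STAR, cutadapt and DESeq2 1.24.07, and the build is GRCh38. Which counter, annotation and strandedness made the counts is not given in the sources used here. Rows with no gene name (2.147% to 2.588% of counts) and 63 copies of identical neighbouring rows were left out, which left 18318 genes. Annotation came from GENCODE 29 and promoter windows from RefSeq.

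Low-count genes were removed with filterByExpr, and the 12797 left were tested with edgeR 4.0.16 (R 4.3.3) using TMM factors and a robust quasi-likelihood fit of SLNCR against empty vector, two-sided. Adjusted p-values are Benjamini-Hochberg over all tested genes, with a threshold of 0.05, and an SE is the fold change over the root of F. P-values measure the spread between libraries, with a common biological coefficient of variation of 5.65%. The GC correction fits a loess curve (span 0.5) on gene GC content to each library's deviation of log2 CPM from the gene's mean. The curve enters the edgeR fit as an offset. The code was tested on simulated counts.

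Alternatives were other scalings and filters, DESeq2 1.42.0, limma-voom (limma 3.58.1), a replicate block, the GC correction, small RNAs left out, other thresholds and each library left out. The members and lists were chosen with earlier results of these data known. All 10 members were named, up to 4 genes of each list by smallest adjusted p, the 3 genes most like the members' mean, and the tested snoRNAs. RPL13A and PTCD3 were named beyond this rule, after their values were seen, to account for all called protein-coding hosts.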

Additional observations from a re-analysis of the deposited data

How the results depend on the processing

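Over the 17 alternatives run for each single host, 142 values kept their sign and their side of the threshold, 13 lost a call, 5 gained one and 10 changed sign. Neither call held throughout: SNHG12 passed in 12 of 17 alternatives (log2 fold change -0.60 to -0.24) and SNHG8 in 9 of 17 (-0.32 to -0.21). SNHG1 went from 0.09 to -0.01 with the GC correction, -0.0049 with the replicate block and GC correction, and -0.03 with the GC correction and without SLNCR replicate 3, a combination chosen after seeing the data. In the same 3 fits SNHG7 went from -0.19 to 0.10, 0.10 and 0.07, and in the first 2 SNHG16 went from 0.05 to -0.01. GAS5 ranged from -0.09 to 0.01 with each library left out (0.01 without SLNCR replicate 3), and ZFAS1 was 0.03 with the GC correction and without that library.

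The number of hosts called lower, 2, became 1 by DESeq2, 4 with the replicate block, 0 with the GC correction, 1 with both, 0 at an adjusted p below 0.01 and 0 with the GC correction and without SLNCR replicate 3. Leaving out each library gave 0 to 4. No alternative called a host higher. The number of all genes called, 2112, became 3523 with the block, 2 with the GC correction, 407 with both, 2 and 3642 at adjusted p below 0.01 and 0.10, 101 with the GC correction and without SLNCR replicate 3, and 1 to 3366 with each library left out. Apart from fewer libraries or another threshold, the cause was not tested. Same-numbered libraries correlated by 0.075, 0.007 and 0.239 in their deviations from the group means, the last being the highest of any combination. SLNCR replicate 2 was most like empty vector replicate 1 (0.205). Deviations within a group are not independent, so these values cannot settle whether same-numbered libraries are pairs. The main fit does not treat them as pairs. The hosts rest on 121 (SNHG12) to 5958 (SNHG16) reads per library, and most of their snoRNAs on fewer than 50.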
